A study of Mus musculus with 9 samples.

Results

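Genes of the distal convoluted tubule (DCT) and of the WNK kinase pathway were followed in mouse kidney at 2 ages. They comprised 10 of the 13081 genes in the deposited table, chosen by symbol from a list: Slc12a3, Trpm6, Pvalb, Calb1, Slc8a1, Trpv5, Wnk1, Wnk4, Stk39 and Klhl3. All 10 had a row and all 10 were among the 12667 genes tested. The libraries came from whole kidney of wild type mice, 4 from mice 3 months old (young) and 5 from mice 16 months old (old). The study's methods give a C57BL/6 background, the labels name no treatment other than age, and neither the sex of each mouse nor a pairing of young with old animals is given there. Replicates were separate libraries, one per labelled sample. The sample names carry one prefix in all young libraries and another in all old ones, so that age and any difference in preparation or sequencing between these sets cannot be told apart.

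The DCT is the short segment after the thick ascending limb that takes up sodium chloride through the thiazide-sensitive cotransporter NCC and sets the final handling of magnesium and, in its late portion, calcium. NCC is switched on by phosphorylation: WNK kinases activate the kinases SPAK (Stk39) and OSR1 (Oxsr1), which phosphorylate the cotransporter. The adaptor KLHL3 brings WNK kinases to the CUL3 ubiquitin ligase for degradation, and inherited defects along this chain cause disorders of blood pressure and potassium. These steps act on protein and on phosphorylation, neither of which was measured here, and the values below are messenger RNA levels.

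Promoter sequence was taken from RefSeq for the mouse build GRCm38.p6, as the 250 bases before the annotated start, for 9 of the 10 genes in 10 windows. Calb1 was not matched. The following 4 are shown. They cover the cotransporter, a WNK kinase, the adaptor for its degradation and the only member that did not pass the test. Capitals mark TATAAA or GGGCGG on either strand.

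Slc12a3: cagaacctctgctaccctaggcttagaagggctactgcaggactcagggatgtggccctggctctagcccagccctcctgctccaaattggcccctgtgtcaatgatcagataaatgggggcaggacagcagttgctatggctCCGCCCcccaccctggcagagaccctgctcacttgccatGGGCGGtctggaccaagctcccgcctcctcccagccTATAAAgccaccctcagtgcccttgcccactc

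Wnk4: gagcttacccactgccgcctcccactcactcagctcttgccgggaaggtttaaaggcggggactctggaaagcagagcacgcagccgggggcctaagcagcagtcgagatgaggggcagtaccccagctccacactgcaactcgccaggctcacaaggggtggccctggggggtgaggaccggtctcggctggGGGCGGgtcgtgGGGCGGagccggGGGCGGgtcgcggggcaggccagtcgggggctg

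Klhl3: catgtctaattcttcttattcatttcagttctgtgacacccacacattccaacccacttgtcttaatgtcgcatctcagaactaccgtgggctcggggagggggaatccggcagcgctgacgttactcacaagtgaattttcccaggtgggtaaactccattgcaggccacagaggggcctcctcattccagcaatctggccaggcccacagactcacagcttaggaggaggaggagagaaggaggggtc

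Trpv5: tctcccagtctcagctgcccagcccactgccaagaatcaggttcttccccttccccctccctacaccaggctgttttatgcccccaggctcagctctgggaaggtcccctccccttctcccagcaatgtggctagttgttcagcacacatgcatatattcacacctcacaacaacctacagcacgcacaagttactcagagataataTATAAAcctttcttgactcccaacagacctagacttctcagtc

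These windows lie at chr8:94328958-94329207 on the plus strand for Slc12a3, chr11:101260317-101260566 on the plus strand for Wnk4, chr13:58113648-58113897 on the minus strand for Klhl3 and chr6:41680724-41680973 on the minus strand for Trpv5. The letters TATAAA stood 32 bases before the Slc12a3 start and 43 bases before the Trpv5 start, and were found in 12.4% of all 32851 promoter windows of this length. GGGCGG occurred in 4 of the 10 windows (Slc12a3, Wnk1, Wnk4 and Stk39), against 32.7% of all windows. Other motifs, also searched on both strands, were in none of the 10 windows. Of all windows, 16.1% held AGAACA, a core of steroid receptor sites, while 6.43% held the HNF1 core GTTAAT, 6.02% held the E-box CACGTG and 1.55% held the cyclic AMP response element TGACGTCA. Of the 7 genes that rose, described below, 4 had GGGCGG and 3 (Trpm6, Slc8a1 and Klhl3) did not.

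The deposited normalised counts came from libraries with 5093029 to 6355095 reads in genes (young) and 4486406 to 5794960 (old). The mitochondrial genome took 27.0% to 29.7% of the counts in young libraries and 35.8% to 38.1% in old ones. Summed adipocyte markers ranged from 2.46 to 559 normalised counts in young libraries and from 2.80 to 690 in old ones, highest in young replicate 2 and old replicate 3. Age differences were wide across the transcriptome: with limma at an adjusted p-value under 0.05, 7568 of the 12667 tested genes (59.7%) were called, 3704 (29.2%) higher and 3864 (30.5%) lower in old kidneys, and 6201 (49.0%) had no overlap between the ages. Replicate numbers only name the libraries.

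The 10 genes were listed with earlier results of these data known, so the counts here describe them and do not test for an excess. Of the 10 DCT and WNK genes, 9 passed the test, against 59.7% of all tested genes. Higher in old kidneys were 7 (Slc12a3, Trpm6, Slc8a1, Wnk1, Wnk4, Stk39 and Klhl3), where 29.2% of all genes were called higher. Lower were 2 (Pvalb and Calb1), against 30.5% of all genes, and Trpv5 was not called. The young and old libraries did not overlap for 8 genes, against 49.0% of all genes. The median log2 fold change, old against young, was 0.65 over the 10 genes and -0.00 over all tested genes. With a trend over transcript length removed, as described below, these medians were 0.23 and 0.02. In whole kidney, fewer cells of a type and less RNA per cell cannot be told apart, nor can more of either.

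**Figure D1:**
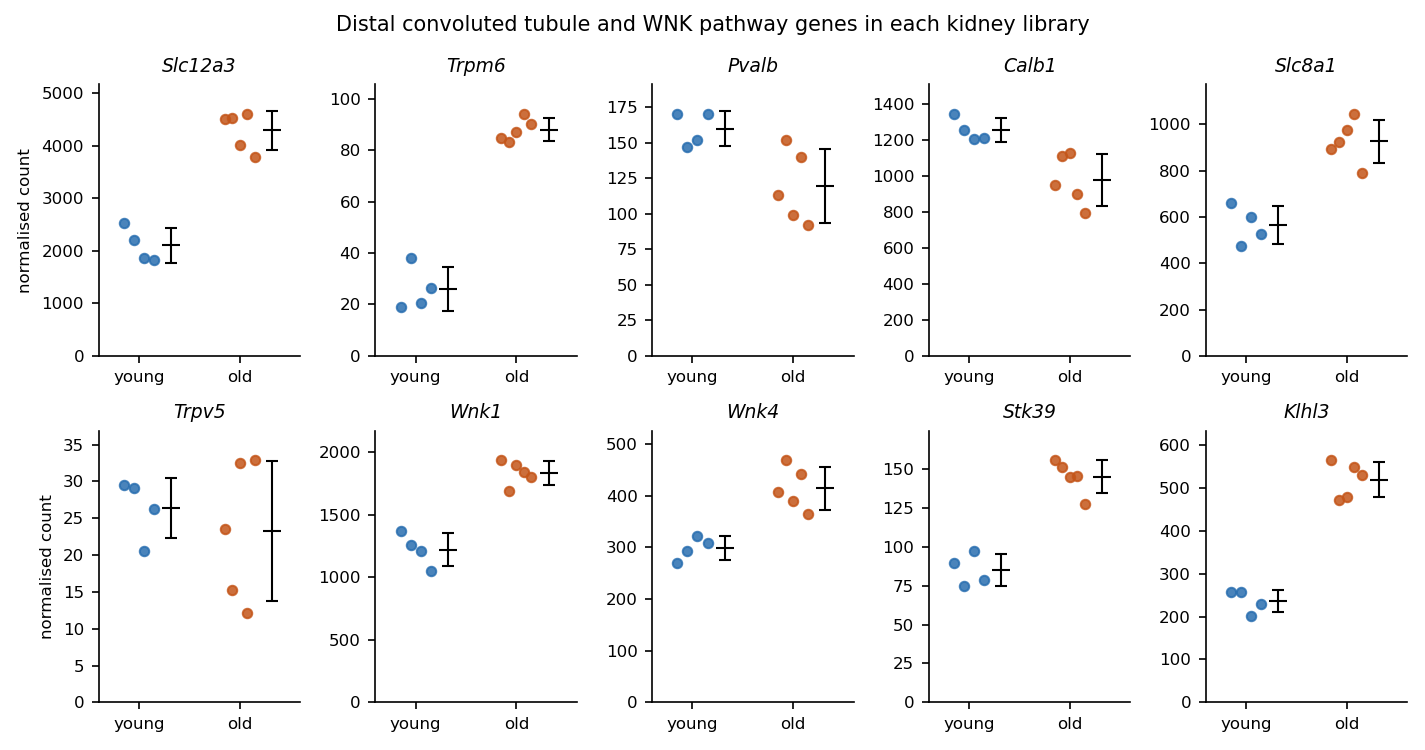
Normalised counts of the 10 DCT and WNK genes in each library, 4 young (3 months) and 5 old (16 months), 1 panel per gene on its own axis, with each point a library and the bar the group mean. Slc12a3 lies between 1822 and 2533 in young and between 3795 and 4616 in old libraries, Calb1 is lower in all old libraries, and the ages overlap for Pvalb and Trpv5.

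Slc12a3, which encodes NCC, defines the segment. On GRCm38 with the GENCODE vM21 annotation it spans chromosome 8 from 94329201 to 94366214 on the plus strand, with 24 exons in its longest transcript. Its normalised counts were 2533, 2201, 1869 and 1822 in the young libraries and 4512, 4535, 4017, 4616 and 3795 in the old ones. Every old library stood above every young one. The mean rose from 2106 ± 331 (SD, n = 4) to 4295 ± 366 (SD, n = 5), a fitted 2.05-fold, with a log2 fold change of 1.04 (SE 0.11, 95% interval 0.81 to 1.26, limma adjusted p = 1.63e-07).

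The WNK kinases sit at the head of the chain. Wnk1, on chromosome 6 from 119923969 to 120038672 (minus strand, 26 annotated transcripts), had 1365, 1255, 1206 and 1051 normalised counts in young kidneys and 1935, 1692, 1896, 1838 and 1803 in old ones. All old libraries were higher, and the mean rose from 1219 ± 130 to 1833 ± 93.8 (fitted 1.51-fold, log2 fold change 0.59, SE 0.09, limma adjusted p = 2.27e-05). Wnk1 makes a full-length kinase and a short kidney form without kinase activity that is made mainly in the DCT. Reads placed near the 3′ end cannot tell these forms apart, since they share it. With the trend over transcript length removed, the log2 fold change of Wnk1 was 0.02.

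Wnk4, the family member best known for acting on NCC in the DCT, lies on chromosome 11 from 101260567 to 101277409 (plus strand, 19 exons). It had 269, 292, 323 and 310 normalised counts in young libraries and 407, 469, 389, 443 and 365 in old ones. The lowest old library again exceeded the highest young one. The mean rose from 299 ± 23.0 to 415 ± 41.7 (fitted 1.39-fold, log2 fold change 0.47, SE 0.11, limma adjusted p = 0.000816), the smallest rise among the 7 genes.

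Stk39 encodes SPAK, the kinase between the WNKs and NCC, and lies on chromosome 2 from 68210445 to 68472268 (minus strand, 18 exons). Its normalised counts were 89.3, 74.8, 97.1 and 78.8 in young libraries and 156, 151, 145, 146 and 127 in old ones, without overlap. The mean rose from 85.0 ± 10.1 to 145 ± 10.7 (fitted 1.70-fold, log2 fold change 0.77, SE 0.13, limma adjusted p = 6.44e-05). With the length trend removed its log2 fold change was 0.81.

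Klhl3, the adaptor that marks WNK kinases for degradation, lies on chromosome 13 from 58000228 to 58113592 (minus strand, 15 exons). It had 256, 257, 202 and 229 normalised counts in young kidneys and 565, 473, 480, 548 and 529 in old ones. The gap between the ages was wide against the spread within them. The mean rose from 236 ± 26.1 to 519 ± 40.9 (fitted 2.20-fold, log2 fold change 1.14, SE 0.11, 95% interval 0.91 to 1.36, limma adjusted p = 4.35e-08). The RNA for the kinase Wnk4 and that for the adaptor that limits it were both higher in old kidneys, also with the length trend removed (0.44 and 0.78 on the log2 scale).

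Trpm6 encodes the apical magnesium channel of the DCT and lies on chromosome 19 from 18749983 to 18892511 (plus strand, 39 exons). Its normalised counts were 18.8, 37.9, 20.6 and 26.3 in young libraries and 84.9, 83.1, 87.2, 94.2 and 90.2 in old ones. The old libraries were tightly grouped and all far above the young ones. The mean rose from 25.9 ± 8.60 to 87.9 ± 4.40 (fitted 3.42-fold), with the largest log2 fold change of the 10 genes, 1.77 (SE 0.20, 95% interval 1.36 to 2.19, limma adjusted p = 4.37e-07). It rested on 21 to 101 reads per library.

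Slc8a1 encodes the basolateral sodium-calcium exchanger of the late DCT and connecting tubule, and is also made in heart, muscle and vessels. It lies on chromosome 17 from 81373105 to 81738377 (minus strand, 8 exons). Normalised counts were 659, 476, 601 and 524 in young and 891, 924, 974, 1046 and 791 in old libraries, with no overlap. The mean rose from 565 ± 81.1 to 925 ± 94.8 (fitted 1.64-fold, log2 fold change 0.72, SE 0.11, limma adjusted p = 1.76e-05). Its longest annotated transcript is the longest among the 10 genes, and with the trend over transcript length removed its log2 fold change was -0.07.

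The cytosolic calcium-binding proteins Calb1 and Pvalb were called lower, but neither after rescaling on nuclear genes alone. Calb1, calbindin, carries calcium across late DCT and connecting tubule cells and lies on chromosome 4 from 15881264 to 15908064 (plus strand, 11 exons). Its normalised counts were 1349, 1257, 1207 and 1212 in young and 952, 1115, 1131, 901 and 797 in old libraries, every old value below every young one. The mean fell from 1256 ± 65.7 to 979 ± 143 (log2 fold change -0.37, SE 0.11, 95% interval -0.59 to -0.15, limma adjusted p = 0.00549), and it was -0.23 (adjusted p = 0.0894) after that rescaling.

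Pvalb, parvalbumin, marks the early DCT in mouse and lies on chromosome 15 from 78191114 to 78206400 (minus strand, 4 exons). It had 170, 147, 152 and 170 normalised counts in young libraries and 113, 152, 99.4, 140 and 92.3 in old ones. Old replicate 2 lay within the young range, so that the ages overlapped, while the other 4 old libraries were below it. The mean fell from 160 ± 12.3 to 119 ± 25.8 (log2 fold change -0.44, SE 0.15, 95% interval -0.76 to -0.12, limma adjusted p = 0.0173), and without young replicate 1 the adjusted p was 0.0523. Its log2 fold change was -0.04 (limma adjusted p = 0.804) with the length trend removed and -0.30 (adjusted p = 0.0917) after rescaling on nuclear genes alone.

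Trpv5, the apical calcium entry channel of the late DCT and connecting tubule, lies on chromosome 6 from 41652173 to 41680769 (minus strand, 15 exons). Its normalised counts were 29.5, 29.1, 20.6 and 26.3 in young and 23.6, 15.3, 32.5, 12.1 and 32.9 in old libraries, which overlapped. The means were 26.4 ± 4.12 and 23.3 ± 9.54, and the log2 fold change of -0.26 (SE 0.30, limma adjusted p = 0.467) had a 95% interval from -0.88 to 0.36. It rested on 13 to 36 reads per library, and the interval holds both a fall and a rise.

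**Figure D2:**
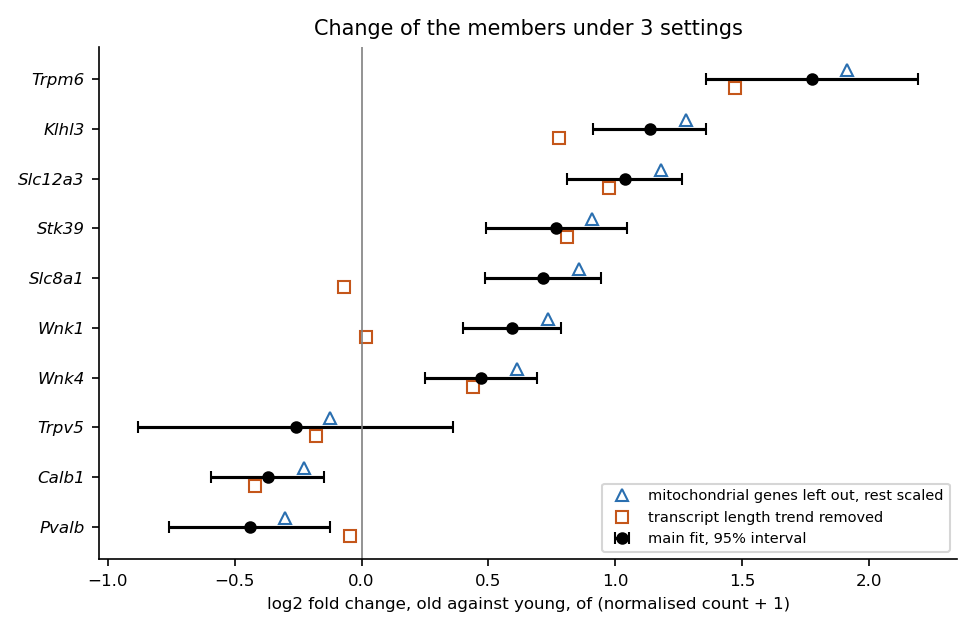
Log2 fold change of each of the 10 genes, old against young, with its 95% interval from limma, beside the values after the trend with transcript length was removed and after rescaling on nuclear genes alone. The 7 genes that rose run from 0.47 (Wnk4) to 1.77 (Trpm6), and Slc8a1 and Wnk1 move to -0.07 and 0.02 once the length trend is removed.

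Of the settings tried with all 9 libraries, removal of a length trend and rescaling on nuclear genes changed the calls of tested members. Fold changes differed with transcript length: the median log2 fold change was -0.30 in the 3114 tested genes with the shortest transcripts (up to 2135 bases) and 0.35 in the 3114 with the longest (from 4805 bases). Length here is that of a gene's longest annotated transcript, which may not be the form made in kidney. By it the 10 genes differ from 977 bases (Pvalb) to 18464 bases (Slc8a1) and 11330 bases (Wnk1). With that trend removed, 6 of the 10 genes were called, a share close to that over all tested genes (7171 of 12455). The 6 were Slc12a3 (0.97), Trpm6 (1.47), Wnk4 (0.44), Stk39 (0.81) and Klhl3 (0.78), higher, and Calb1 (-0.42), lower on the log2 scale. Slc8a1 (-0.07, limma adjusted p = 0.637), Wnk1 (0.02, adjusted p = 0.871) and Pvalb (-0.04, adjusted p = 0.804) were not called. When libraries were rescaled on nuclear genes alone, the median log2 fold change of all genes became 0.14. Of 12684 genes tested there, 7664 were called, 58.5% of these higher, against 48.9% of the calls in the main fit. The same 7 genes were called higher, from 0.61 (Wnk4) to 1.91 (Trpm6), while Calb1 (-0.23, limma adjusted p = 0.0894) and Pvalb (-0.30, adjusted p = 0.0917) lost their calls. Relative to that median the falls of Calb1 and Pvalb are little altered in size, and the part of the mitochondrial share in them was not tested.

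Neighbouring steps were set against each other as the log2 ratio of normalised counts within each library, for 4 pairs and with the exact two-sided permutation test over libraries, whose smallest possible p is 0.0159 for 4 against 5. Ratios compare change between the ages and say nothing of which gene is more abundant, because length and 3′ end placement differ between genes. The ratio of Klhl3 to Cul3, the ligase scaffold it works with, was -0.49 ± 0.22 (SD, n = 4) in young and 0.65 ± 0.14 (SD, n = 5) in old libraries, a difference of 1.13 with no overlap (exact permutation p = 0.0159, 0.0635 adjusted over the 4 ratios). Klhl3 rose against a Cul3 level of 330 ± 25.0 in young and 331 ± 19.7 normalised counts in old kidneys (log2 fold change 0.00, limma adjusted p = 0.978).

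The ratio of Wnk4 to Wnk1 was -2.02 ± 0.25 in young and -2.15 ± 0.19 in old libraries (difference -0.12, exact permutation p = 0.444), and the ages overlapped. With the length trend removed, the log2 fold changes were 0.44 for Wnk4 and 0.02 for Wnk1. Stk39 against its paralog Oxsr1, which was also called higher (log2 fold change 0.56, limma adjusted p = 0.00889), gave 0.41 ± 0.29 and 0.61 ± 0.33 (difference 0.21, exact permutation p = 0.317). Slc12a3 against Slc12a1, the cotransporter of the thick ascending limb, gave 0.09 ± 0.30 and 0.38 ± 0.28 (difference 0.30, exact permutation p = 0.159). Slc12a1 itself rose by 0.74 on the log2 scale (limma adjusted p = 1.63e-05), so the cotransporters of both neighbouring segments were higher in old kidneys. The spread of these 3 ratios between libraries leaves modest differences undetected in either direction.

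**Figure D3:**
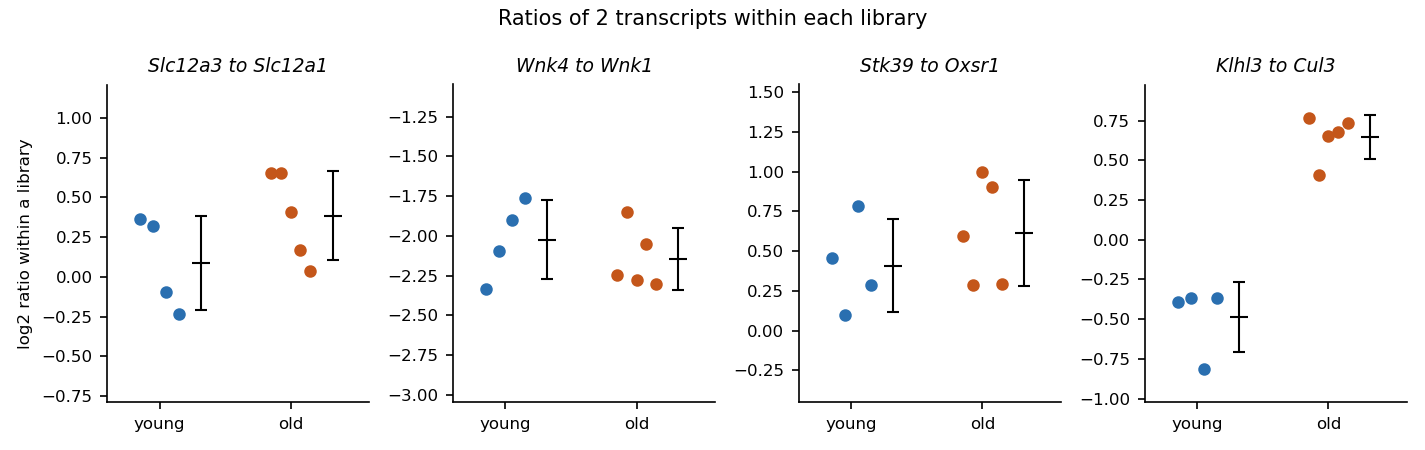
Log2 ratios of normalised counts in each library for 4 pairs of neighbouring pathway genes, 4 young and 5 old libraries, with points for libraries and bars for group means. Young and old libraries do not overlap for Klhl3 to Cul3 (at most -0.37 in young and at least 0.41 in old) and overlap for the other 3 pairs.

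Other genes of the segment did not share one direction. Of 19 further DCT genes on a list, 18 were in the table, and 9 of them were called, 6 higher and 3 lower, where 59.7% of all tested genes were called, 29.2% higher and 30.5% lower. The median log2 fold change of the list was 0.04, against -0.00 over all tested genes. Higher were Tmem52b, a membrane protein gene (from 618 ± 58.7 to 1278 ± 129 normalised counts, log2 fold change 1.05), and Egf, the precursor of epidermal growth factor made in distal tubule (from 1633 ± 128 to 3394 ± 649, log2 fold change 1.04). Also higher were Cnnm2, a basolateral magnesium transport gene (log2 fold change 0.97), Kcnj16, a basolateral potassium channel subunit (0.69), and Atp1b1, the sodium pump's beta subunit (0.57). Lower was Bsnd, barttin, the subunit of basolateral chloride channels (from 168 ± 13.3 to 83.0 ± 21.3, log2 fold change -1.04). For these 6 genes the limma adjusted p lay between 5.65e-08 and 7.64e-05. Kcnj10, the partner of Kcnj16, had 89.6 and 89.3 normalised counts (limma adjusted p = 0.992).

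For distal calcium transport, 7 of 8 listed genes were in the table and 5 were called, 2 higher and 3 lower, with 59.7% of all tested genes called (median log2 fold change -0.28). The plasma membrane calcium pumps Atp2b1 and Atp2b4 rose, from 286 ± 19.6 to 504 ± 26.3 and from 80.2 ± 4.77 to 211 ± 29.7 normalised counts (log2 fold changes 0.82 and 1.38). Pth1r, the parathyroid hormone receptor, and Kl, klotho, the coreceptor for a phosphate-lowering hormone, fell from 4416 ± 144 to 1833 ± 278 and from 1422 ± 37.3 to 819 ± 55.2 (log2 fold changes -1.28 and -0.80). For these 4 genes the limma adjusted p lay between 9.25e-09 and 7.46e-07. Their values are levels in whole kidney, and the part of segments other than the distal tubule in them was not tested. With the length trend removed the log2 fold changes were 0.46 for Atp2b1 and 0.79 for Atp2b4, both still called. S100g, the other calbindin, had a log2 fold change of -0.28 that missed the threshold (limma adjusted p = 0.0583).

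Among 18 other WNK pathway genes, 17 were in the table and 11 were called, 4 higher and 7 lower, a share close to the 59.7% called among all tested genes (median log2 fold change -0.31). Sgk1, the aldosterone-induced kinase, rose from 127 ± 11.8 to 308 ± 67.6 normalised counts (log2 fold change 1.25, limma adjusted p = 4.32e-07). Both scaffold genes that help SPAK and OSR1 to activate fell: Cab39 from 241 ± 31.7 to 121 ± 10.2 (log2 fold change -0.98, limma adjusted p = 2.06e-06) and Cab39l from 119 ± 9.96 to 76.8 ± 11.1 (-0.63, adjusted p = 0.00123). Also lower were Slc12a7, a potassium-chloride cotransporter (from 422 ± 36.7 to 214 ± 48.8 normalised counts), Hsd11b2, the enzyme that inactivates glucocorticoids in aldosterone target cells (from 657 ± 38.8 to 365 ± 75.3), and Ppp3ca, the catalytic subunit of calcineurin, a phosphatase that can dephosphorylate NCC (from 608 ± 74.4 to 436 ± 42.0). For these 3 genes the limma adjusted p lay between 4.88e-06 and 0.000955. These lists overlap in function with the 10 genes and were read as counts only.

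**Figure D4:**
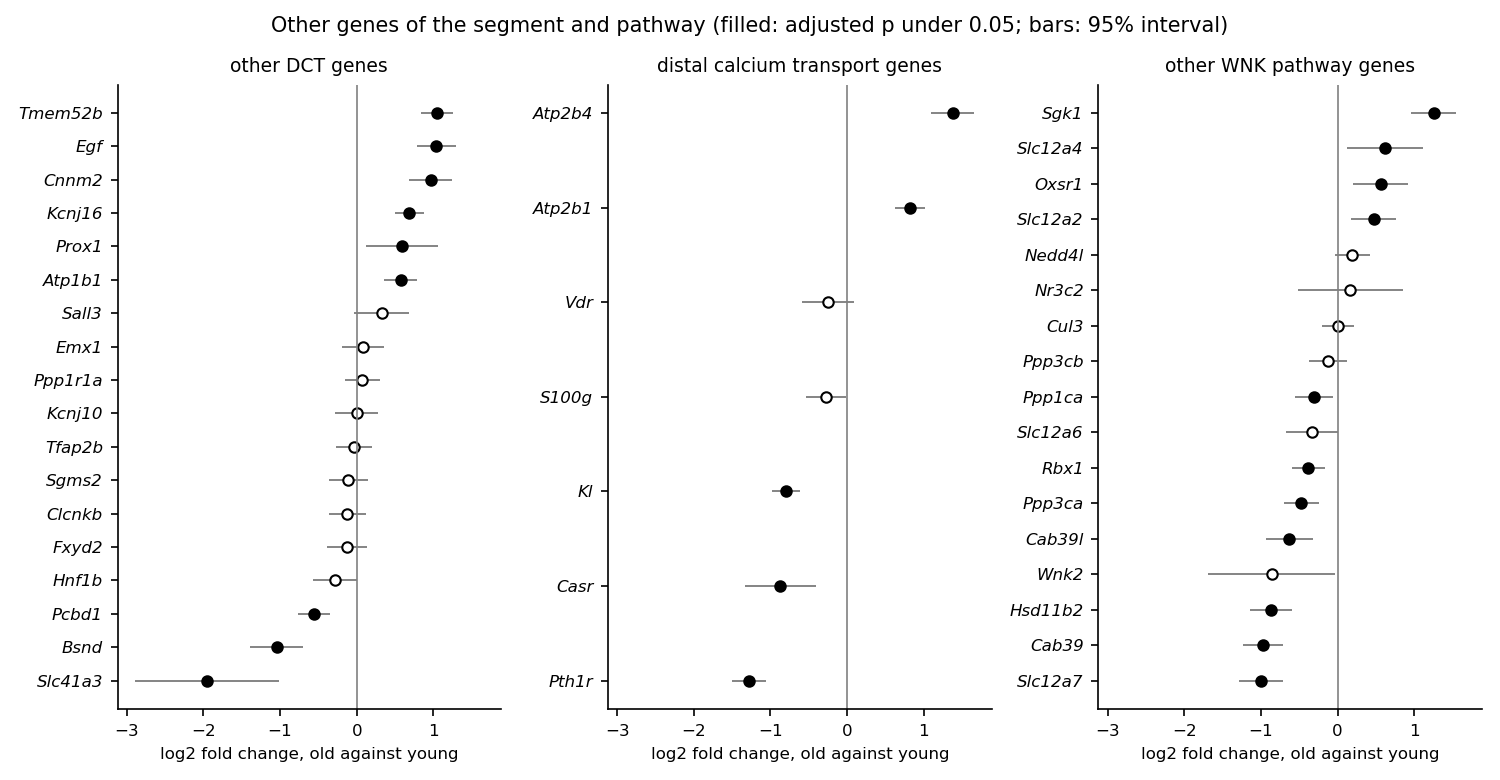
Log2 fold change, old against young, of each tested gene in the lists of other DCT genes, distal calcium transport and other WNK pathway genes, coloured by whether it passed limma's test. Calls run in both directions in each list (6 higher and 3 lower, 2 and 3, 4 and 7).

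Markers of neighbouring segments and of other cell types were summed in each library. Summed thick ascending limb markers were 7442 to 8245 normalised counts in young and 8659 to 11979 in old libraries, with 1 of 6 called (Slc12a1). Collecting duct principal cell markers, some shared with the late DCT, were 1643 to 2352 and 839 to 3190, highest in old replicate 3, with 3 of 6 called lower. Of these, Aqp2 was 2267 in old replicate 3, against 334 to 694 in the other old libraries and 746 to 1376 in young ones. Endothelial markers were 1203 to 1370 and 1704 to 1923, with 4 of 5 called higher, and intercalated cell markers were 850 to 1021 and 628 to 800, with 1 of 6 called higher and 4 lower. Smooth muscle markers, the other muscle genes of their list having no row in the table, were 245 to 381 in young and 624 to 840 in old libraries, with 2 of 3 called higher, Tagln (log2 fold change 2.21) and Myh11 (1.33). Proximal tubule markers were 28658 to 29590 and 26166 to 34096 (2 of 6 called higher, 3 lower), and podocyte markers 507 to 550 and 386 to 443 (2 of 4 higher, 1 lower). Macrophage markers were 439 to 521 and 471 to 672 (2 of 5 higher), and fibroblast markers 559 to 771 and 430 to 864 (1 of 4 higher, 2 lower). Of all tested genes, 59.7% were called, 29.2% higher and 30.5% lower. Slc8a1, also made in muscle and vessels, rose in the same libraries, and the part of these cells in its level was not tested. The summed level of the 10 genes was 5450 to 6740 in young and 8423 to 9782 in old libraries. The part of the makeup of the sampled tissue in these values was not tested. With young replicate 2 and old replicate 3, the libraries highest in adipocyte markers, left out, the same 9 genes were called in the same directions. In that fit 6571 of all 12175 tested genes were called.

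Within an age, the gene whose level followed Slc12a3 most closely over the 9 libraries, each value centred on its age mean, was Svip (Pearson r = 0.958), then B3gat2 (0.957) and Tmem52b (0.926), out of 8150 genes whose mean reached 50 normalised counts. Svip encodes a small protein of endoplasmic reticulum quality control and B3gat2 a glucuronyltransferase. Their log2 fold changes were 0.26 for Svip and 0.07 for B3gat2, neither called (limma adjusted p = 0.0884 and 0.639), although Svip was called higher under 3 of the alternatives. Among the 8 other members compared (Trpv5 lay below that mean), r with Slc12a3 was highest for Wnk1 (0.63) and Klhl3 (0.59) and lowest for Trpm6 (-0.11). The libraries share size factors and RNA pools, so these values describe 9 libraries and carry no test.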

How the data were processed

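Kidney RNA of 4 young and 5 old wild type mice was measured with an oligo(dT)-primed, strand-specific 3′ end kit from 500 ng of RNA, read as single reads. Per the labels and the study's methods, the authors used FastQC 0.11.7, TopHat2 2.0.10, Bowtie 1.0.0, SAMtools 0.1.19 and HTSeq 0.6.1 on GRCm39 with the GENCODE vM26 annotation, and DESeq. Labels and methods name different versions of the kit. In the deposited table each value is a signal (normalised count): the authors divided a gene's reads by the size factor of its library. Dividing by the value of 1 read gave whole reads for 100% of values (within 0.01).

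Genes reaching 10 normalised counts in 4 or more libraries entered limma 3.58.1 (R 4.3.3) on log2(value + 1), with Benjamini-Hochberg adjustment over all tested genes. Fold changes on this scale understate low genes, and p-values weigh the age difference against the spread between libraries, moderated across genes. On the recovered reads edgeR 4.0.16 called 7649 genes and DESeq2 1.42.0 called 7532 (9 without an adjusted p). Alternatives were other pseudocounts, filters and scalings, removal of the trend with transcript length (lowess), and leaving out each library. Leaving out both adipocyte-rich libraries was added after the data were seen.

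Counts were simulated for the 12667 genes, with 67 changed 1.5-fold, 67 changed 2-fold and 66 changed 4-fold. Of these, limma called 17.9%, 73.1% and 100%, and 3.79% of its calls were false. The simulation changed far fewer genes than the 7568 called here and gave all genes the same dispersion. Its rates describe that setting only. Ratios were compared by exact permutation. Gene positions, transcripts and promoters come from GRCm38, not the authors' build, and coordinates were not converted. No 50-base stretch of the members' last 500 transcript bases was shared with another gene. Trpm6, Slc8a1, Wnk1 and Wnk4 have antisense genes in that annotation, and Wnk1 and Klhl3 host a microRNA on their own strand; counting used strand. Pathway genes named are those called with a mean of at least 50, at most 6 a list by moderated t, with Slc12a1, Oxsr1 and Cul3 for the ratios, and the 3 genes most like Slc12a3. Kcnj10 and S100g were named after their values were seen. Of the list of other DCT genes, 1 gene is not reported here and is in none of its counts. The members and lists were chosen with earlier results of these data known.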

Additional observations from a re-analysis of the deposited data

Results flagged for a closer look

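The log2 ratio of Klhl3 to Cul3 had 1 young library apart from the others. Young replicate 3 stood at -0.81, while the other 3 young libraries lay between -0.39 and -0.37, a gap of 0.947 of the group's whole range. In that library Klhl3 had 202 normalised counts. All 5 old libraries lay above all 4 young ones with or without it. In all, 28 groups of libraries were examined in this way, for which chance alone gives about 1.4 such gaps at a rate of 1 in 20, and this was the only gap found.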

How the results depend on the processing

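Each gene called higher kept its call under every alternative that tested it except removal of the length trend, where Slc8a1 changed sign (-0.069) and Wnk1 lost its call (0.02). The filter at a mean of 100 normalised counts left Trpm6 and Trpv5 untested, and the other 8 members were all called. The count of genes called lower was 2. It was 0 after rescaling on nuclear genes alone and 1 with the length trend removed, and it ranged from 1 (without young replicate 1, Pvalb) to 2 when libraries were left out in turn. The cause was not tested. edgeR and DESeq2 called the same 9 genes. Of 208 alternative values for the members' fold changes, 202 kept direction and side of the threshold, 5 lost the call and 1 reversed. That filter left 4101 genes called of 5655, against 7568. Uncalled genes near 0 changed sign: Cul3 to -0.00083 (TMM factors), -0.049 (table total) and -0.12 (length trend), and from -0.047 to 0.041 with libraries left out; Kcnj10 to 0.14 (nuclear genes alone) and 0.035 (adipocyte-rich libraries left out), and from -0.064 to 0.027 with libraries left out; S100g to 0.060 and B3gat2 to -0.16 (length trend). S100g was called lower under 5 settings (table total, robust eBayes, and without young replicate 1, young replicate 4 or old replicate 5; limma adjusted p from 0.0173 to 0.0447), and Svip higher under 3 (nuclear genes alone, length trend removed, and without young replicate 1; from 0.0103 to 0.0374). No paired analysis was possible because the labels give the libraries no shared replicate numbers. Trpv5 and Trpm6 rest on the fewest reads of the members, and 3′ end counting leaves isoforms unresolved.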

Other observations

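Several genes chosen after their values were seen add to the account of ion transport. Slc41a3, a magnesium transporter gene of the DCT, had 24.6, 28.2, 43.1 and 25.3 normalised counts in young libraries and 4.71, 24.1, 7.10, 7.46 and 2.12 in old ones, all old values below all young ones. Its log2 fold change was -1.95 (SE 0.45, limma adjusted p = 0.00104). Trpm6 and Cnnm2, of the same segment's magnesium route, were higher, so these 3 magnesium genes did not share a direction. Old replicate 2 stood nearest to the young libraries.

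Among the cation-chloride cotransporters, Slc12a2 (0.47, limma adjusted p = 0.00689) and Slc12a4 (0.61, adjusted p = 0.0311) were higher on the log2 scale, as were Slc12a1 and Slc12a3, and Slc12a7 was lower. The Slc12a4 call was lost without young replicate 1 or 3 or old replicate 1 or 3 (limma adjusted p from 0.0746 to 0.0892), with table-total scaling (0.0606) and with both adipocyte-rich libraries left out (0.0973), and that of Slc12a2 with the length trend removed (0.313).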
